A study of Mus musculus with 33 samples.

Results

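Ion channel genes with symbols starting with Kcn (potassium channels), Cacn (calcium channels) or Scn and a digit (sodium channels) were followed through the neural and mesodermal differentiation of P19 cells. Members were chosen by symbol alone, after the Ensembl IDs of the deposited RNA table were matched to mouse symbols, and predicted or unnamed genes were left out. The rule found 76 of the 14717 genes in the table, made up of 49 Kcn, 18 Cacn and 9 Scn genes. A further 63 of the 139 mouse symbols that fit the rule were not analysed here, Kcne3 among them. Levels are in CPM, counts per 1000000 of a library size that follows the deposited scale, so they do not sum to 1000000 in each library. Each of the 76 averaged at least 1.13 CPM in its highest group, and the lowest such value over all genes of the table was 0.924 CPM. The counts given here thus describe members with that much RNA and not the whole families.

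The label of voltage-gated channels covers part of what the rule found. The pore-forming voltage-gated members are 7 sodium channel alpha subunits, 7 calcium channel alpha1 subunits, 11 potassium channels of the Kv1 to Kv4 families, 5 Kv7 channels and 6 channels of the EAG, ERG and ELK families. They come with 2 sodium channel beta subunits, 3 alpha2delta, 4 beta and 4 gamma subunits of calcium channels, 3 electrically silent Kv subunits and 6 Kv auxiliary subunits. Another 7 members belong to calcium- or sodium-activated potassium channels, 5 are inward rectifiers and 5 are two-pore potassium channels, most of which are opened by ions, lipids or G proteins or pass current at rest. The last, Kcnmb4os2, is an antisense RNA and codes for no channel.

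P19 is a mouse embryonal carcinoma line from ATCC that grows undifferentiated and can be led to several lineages, and all libraries share its genotype. D0 is undifferentiated cells. D3RA and D6RA were differentiated with 1 µM all-trans retinoic acid (RA), and D3DMSO and D6DMSO with 1% dimethyl sulfoxide (DMSO), both by 2 days as embryoid bodies in bacteriological dishes followed by flasks with maintenance medium, and were taken at day 3 or day 6. There were 3 libraries per group, 15 in all, and 18 chromatin immunoprecipitation samples of the series were not used here. The series' design text calls the replicates biological without naming separate cultures, so p-values measure the spread between these libraries, which may be technical.

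Voltage-gated sodium channels start the action potential, voltage-gated potassium channels end it and set firing patterns, and calcium channels turn the voltage change into calcium entry that triggers transmitter release, contraction and transcription. The pore is formed by 1 large alpha subunit in sodium and calcium channels and by a set of smaller alpha subunits in potassium channels, and auxiliary subunits control how many channels reach the membrane and how they open. Inward rectifiers and two-pore channels hold the resting potential. Neurons and heart muscle, the lineages to which RA and DMSO are known to lead P19 cells, use different members of the same families.

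Libraries held 3549553 to 9878744 counts at D0 and D3 and 38242453 to 49644316 at D6. Counts of 11 mitochondrial genes were 0 in all D0 and D3 libraries and made up 41.6% to 55.8% of the counts in D6 libraries, so handling and depth cannot be told apart from time wherever D6 is set against D3. Levels of the 12 neuron markers summed to 3844 to 4109 CPM in D6RA, 1249 to 1563 in D3RA, 408 to 448 in D0, 176 to 239 in D3DMSO and 51.4 to 54.6 in D6DMSO. The 7 measured of 10 cardiac muscle markers summed to 203 to 303 CPM in D6DMSO and 22.3 to 25.7 in D6RA, and 4 smooth muscle markers to 446 to 525 and 5.76 to 7.66. Cardiac Tnnt2 was at 0 in D3RA, endothelial Emcn at 0 in D3DMSO and pluripotency gene Dppa4 at 0 in D6RA. These are bulk samples, so fewer cells of a type and less RNA per cell cannot be told apart, and the part of the changing cell makeup in the channel results was not tested.

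Promoters of 5 members are shown because their genes carry the patterns described here: Cacna2d3, Cacna1b and Scn9a had their highest levels in D6RA, and Kcnj3 and Kcng3 in D0. Each is the 250 bases before the annotated start of the gene, 5′ to 3′ on the strand of the gene, from RefSeq with build GRCm38.p6, matched by symbol, with CpG dinucleotides in capitals. They lie at chr14:29721865-29722114 (minus strand, Cacna2d3), chr2:24763153-24763402 (minus, Cacna1b), chr2:66634963-66635212 (minus, Scn9a), chr2:55435720-55435969 (plus, Kcnj3) and chr17:83631896-83632145 (minus, Kcng3).
Cacna2d3: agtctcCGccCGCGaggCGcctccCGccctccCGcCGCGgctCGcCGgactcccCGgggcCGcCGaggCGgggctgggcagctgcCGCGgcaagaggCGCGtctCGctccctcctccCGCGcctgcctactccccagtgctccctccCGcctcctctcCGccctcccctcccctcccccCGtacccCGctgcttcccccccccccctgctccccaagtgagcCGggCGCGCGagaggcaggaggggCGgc
Cacna1b: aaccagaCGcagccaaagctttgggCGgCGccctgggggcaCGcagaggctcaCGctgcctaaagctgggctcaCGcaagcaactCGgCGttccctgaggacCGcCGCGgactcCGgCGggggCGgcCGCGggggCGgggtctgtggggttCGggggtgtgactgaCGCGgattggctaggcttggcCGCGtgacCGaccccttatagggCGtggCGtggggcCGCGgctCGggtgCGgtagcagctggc
Scn9a: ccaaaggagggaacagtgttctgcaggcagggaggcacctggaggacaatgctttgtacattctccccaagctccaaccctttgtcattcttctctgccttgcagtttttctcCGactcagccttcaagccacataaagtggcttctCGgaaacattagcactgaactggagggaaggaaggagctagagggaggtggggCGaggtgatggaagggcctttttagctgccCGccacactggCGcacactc
Kcnj3: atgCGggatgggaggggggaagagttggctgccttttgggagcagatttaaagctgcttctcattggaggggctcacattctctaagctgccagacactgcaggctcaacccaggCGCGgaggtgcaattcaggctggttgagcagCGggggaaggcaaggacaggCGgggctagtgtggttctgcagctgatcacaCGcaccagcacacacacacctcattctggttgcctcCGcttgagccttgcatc
Kcng3: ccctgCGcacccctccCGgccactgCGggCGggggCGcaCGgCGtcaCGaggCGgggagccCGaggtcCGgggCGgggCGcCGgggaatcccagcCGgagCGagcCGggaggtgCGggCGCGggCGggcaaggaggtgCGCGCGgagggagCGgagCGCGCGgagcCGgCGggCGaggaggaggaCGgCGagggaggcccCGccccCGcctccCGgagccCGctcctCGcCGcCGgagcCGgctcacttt
The windows of Cacna2d3, Cacna1b and Kcng3 are rich in CpG, with 30, 29 and 41 such pairs, while those of Scn9a and Kcnj3 hold 5 and 7. Both kinds of promoter thus stand on each side, among genes high in D6RA and among genes high in D0. In all, 57 of the 76 members matched 84 windows of the 32851 in the table, with a median of 9 CpG pairs against 6 over all windows.

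Short motifs were looked for on both strands of the same windows. The E-box CAGCTG, a core that basic helix-loop-helix factors, proneural ones among them, bind, was in 22.6% of member windows and 13% of all windows. Windows of the same gene were counted separately, and the member windows with an E-box belong to 13 genes, Kcnc2 with more than 1 window among them. It lies in the Cacna2d3, Cacna1b and Kcnj3 windows above. The TATA box TATAAA was in 2.38% of member windows (Cacna1d and Scn2a) and 12.4% of all. The half-site of retinoic acid receptors, AGGTCA, was searched as a direct repeat with a gap of 5 bases (DR5), which was in 0 of 84 member windows and in 0.00913% of all. This exact match was in 3 of 32851 windows, too few for its absence from 84 windows to tell anything. Mismatches and other gaps were not searched for this element. The consensus of the RE1 element, bound by the repressor REST, with up to 5 mismatches was in the windows of Kcnc1, Kcnip3 and Kcnj4, 3.57% of member windows against 1.13% of all. Member windows had a median GC content of 59.6% against 52.4% over all windows, and the motif shares were not adjusted for it. Whether any motif bears on RNA levels was not tested.

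Across the 5 groups, D6RA was the group with the highest mean for 44 of the 76 members (57.9%), against 29.3% of all genes. In 38 of these, all D6RA libraries lay above every other library, a pattern seen in 21.4% of all genes. D0 was highest for 11 members, with 9 above all other libraries (background 13.9%), Cacnb2, Kcnh6, Kcng3, Kcnj12, Kcnj3 and Kcnk1 among them. D6DMSO was highest for 10, with Kcna5, Kcnq5, Kcnab1 and Kcnip4 above all other libraries (10.4%). D3RA was highest for 6, with Scn7a, Kcnh2 and Kcnj2 above all others (7.24%), and D3DMSO for 5, with Scn2b and Kcns3 above all others (4.47%). The heat map of the members by library shows the D6RA block beside the smaller sets of the other groups.

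**Figure D1:**
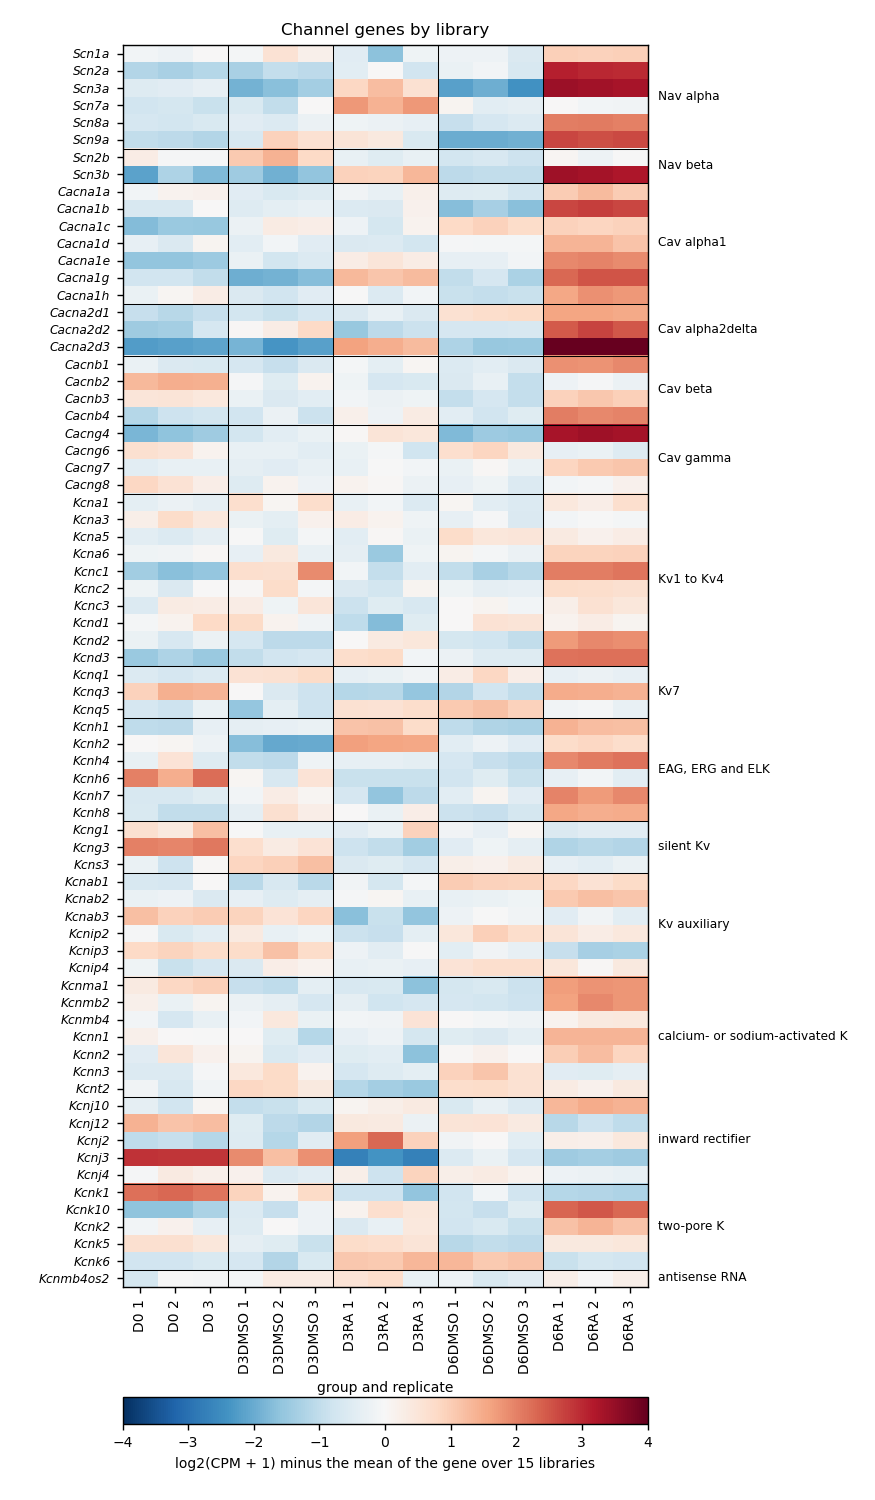
Rows are 72 of the 76 channel genes by role, columns the 15 libraries, and colour is log2(CPM + 1) less the mean of the gene over 15 libraries. The 3 D6RA columns are red in most sodium, calcium and EAG, ERG and ELK rows, and Kcnj3, Kcng3, Kcnk1 and Kcnh6 are red in the D0 columns.

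At day 6 most sodium and calcium channel subunits were higher with RA than with DMSO. Called genes, those with a Benjamini-Hochberg adjusted p under 0.05 in limma over all 14717 genes, numbered 60 of 76 members (78.9%), against 65.8% of all genes, a share given as background from here on. They split into 47 higher in D6RA (61.8% of members, background 32.6%) and 13 lower (17.1%, background 33.1%). The median log2 difference was 1.59 over the members and -0.02 over all genes. The libraries of D6RA and D6DMSO did not overlap in 70 members (92.1%, background 80.3%).

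The split ran by role. Higher in D6RA were 5 of 7 sodium channel alpha subunits, both beta subunits, 6 of 7 calcium channel alpha1 subunits, all 3 alpha2delta, all 4 beta and 2 of 4 gamma subunits, 7 of 11 Kv1 to Kv4 channels and all 6 measured EAG, ERG and ELK channels. The other roles were mixed: Kv7 channels had 3 higher and 2 lower of 5, calcium- or sodium-activated channels 3 higher and 2 lower of 7, two-pore channels 3 and 2 of 5, inward rectifiers 1 and 2 of 5, and Kv auxiliary subunits 1 and 1 of 6. None of the 3 silent Kv subunits was called higher and 2 were called lower. The members passed into the table by their highest group, so these counts describe the measured members only. In the plot of day 6 differences by role, the calcium and sodium channel points lie mostly above 0 and the silent Kv points below.

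**Figure D2:**
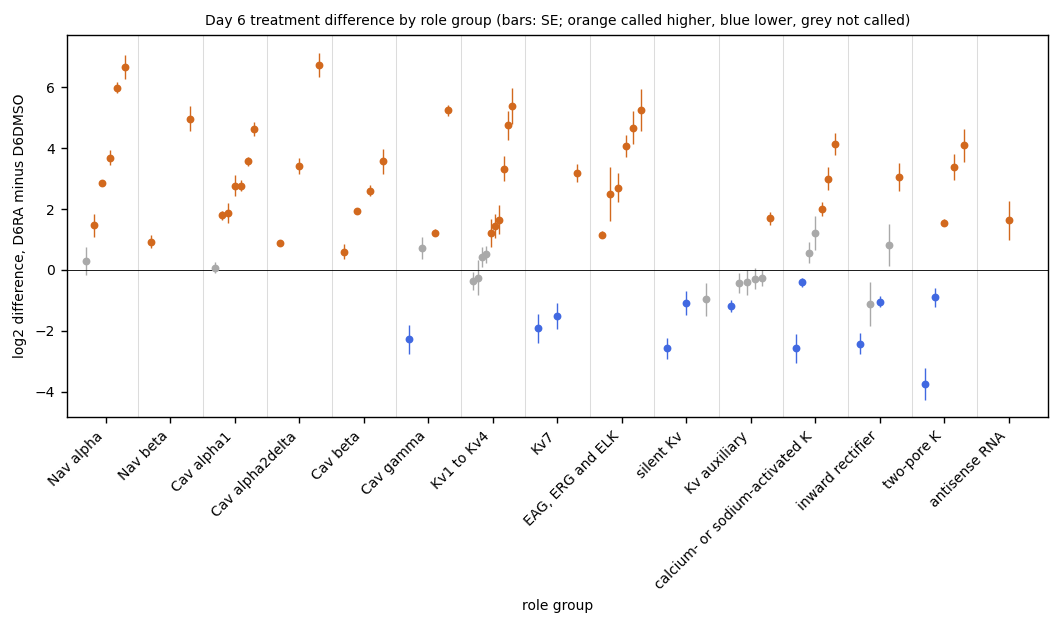
Points are the log2 difference D6RA minus D6DMSO of 72 of the 76 members, each with its SE, sorted within each role group on the x axis, orange where called higher, blue where called lower and grey where not called. The highest point is Cacna2d3 at 6.73 and the lowest is Kcnk6 at -3.74.

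Among sodium channel alpha subunits, the brain types had their highest levels in D6RA. Scn3a, abundant in embryonic brain, was at 181, 172 and 166 CPM in the D6RA libraries, 2.76, 3.36 and 2.14 in D6DMSO, 29.2, 39.1 and 25.1 in D3RA, 3.59, 4.31 and 5.58 in D3DMSO and 11, 11.3 and 12.5 in D0. The groups did not overlap, with D6RA highest, D3RA next and D6DMSO lowest. The log2 difference between treatments was 5.98 ± 0.18 (SE, limma adjusted p = 4.37e-14) at day 6 and 2.77 ± 0.18 (SE, limma adjusted p = 1.26e-09) at day 3.

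Scn2a, which sits in the axon initial segment of young neurons, was at 46.4, 43.4 and 42.6 CPM in D6RA and 3.64, 4.16 and 2.58 in D6DMSO. D6RA was far above all other libraries, which ranged from 1.24 to 4.56 CPM. Scn9a, known from sensory neurons, was at 30.7, 28.5 and 29.8 CPM in D6RA, 0.263, 0.252 and 0.306 in D6DMSO, 6.1, 5.54 and 2.28 in D3RA, 2.21, 8.42 and 6.51 in D3DMSO and 1.54, 1.42 and 1.23 in D0. The D3 groups overlapped each other, and D6DMSO lay below all others. Its treatment difference was 6.65 ± 0.40 (SE, limma adjusted p = 2.12e-10) at day 6 and -0.18 ± 0.40 (SE, limma adjusted p = 0.718) at day 3, and the difference of these differences was 6.83 ± 0.57 (SE, limma adjusted p = 4.89e-08).

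Scn8a, the channel of mature nodes of Ranvier, was at 92.5 to 95.1 CPM in D6RA and between 11.1 and 19.4 CPM in every other library, with a log2 treatment difference of 2.85 ± 0.11 (SE, limma adjusted p = 8.58e-13) at day 6. Scn1a had the smallest difference of these brain types, with 10.8 to 11.1 CPM in D6RA and 3.15 to 4.43 in D6DMSO, a difference of 1.47 ± 0.37 (SE, limma adjusted p = 0.00228). At day 3 Scn1a was lower with RA, with a difference of -1.23 ± 0.37 (SE, limma adjusted p = 0.00846).

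Scn7a, which codes for a sodium level sensor, peaked in D3RA at 6.83, 5.21 and 6.85 CPM, against 0.205 to 1.58 CPM in the other groups.

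The sodium channel beta subunits, adhesion-like partners of the pore, went separate ways at day 3. Scn3b was at 9.02, 8.79 and 12.3 CPM in D3RA and 0.967, 0.411 and 0.775 in D3DMSO, and reached 55.2, 52.2 and 48.4 in D6RA, with no overlap between D6RA and any other library. Scn2b was highest in D3DMSO at 8.56, 11.1 and 6.97 CPM, and its treatment difference was -1.69 ± 0.22 (SE, limma adjusted p = 3.74e-06) at day 3 and 0.93 ± 0.22 (SE, limma adjusted p = 0.00115) at day 6. The day 6 difference of Scn2b arose between low levels, 2.99 to 3.84 CPM in D6RA and 1.62 to 1.97 in D6DMSO.

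Calcium channel alpha1 subunits set the channel type. Cacna1b, the N-type channel of nerve terminals, was at 79.6, 85.3 and 79.1 CPM in D6RA and 2.89, 4.07 and 2.93 in D6DMSO, while the other 3 groups overlapped between 7.08 and 13.2 CPM. Its log2 treatment difference was 4.63 ± 0.22 (SE, limma adjusted p = 1.21e-11) at day 6, and at day 3 it was 0.11 ± 0.22 (SE, limma adjusted p = 0.704). Cacna1a, the P/Q-type channel of nerve terminals, differed less at day 6, with 24.8 to 30.0 CPM in D6RA, 6.78 to 8.23 in D6DMSO and a log2 difference of 1.79 ± 0.15 (SE, limma adjusted p = 1.59e-08).

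The T-type channels Cacna1g and Cacna1h open at low voltage. Cacna1g was at 46, 39.7 and 44.3 CPM in D3RA and 3.87, 4.11 and 4.8 in D3DMSO, then 91.9, 107 and 108 in D6RA and 8.55, 10.9 and 6.83 in D6DMSO. The RA arm was the higher at both days, with a treatment difference of 3.33 ± 0.15 (SE, limma adjusted p = 1.07e-11) at day 3 and 3.57 ± 0.15 (SE, limma adjusted p = 2.16e-12) at day 6, and the change between the days was not called (0.24 ± 0.21 SE, limma adjusted p = 0.372). Cacna1h was at 42.4 to 51.6 CPM in D6RA against 6.72 to 7.02 in D6DMSO, its day 3 groups overlapped, at 9.12 to 13.8 and 7.8 to 9.91, and its treatment difference changed between the days by 2.36 ± 0.24 (SE, limma adjusted p = 4.75e-07).

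Of the L-type channels, which couple to contraction and gene expression, Cacna1c was alone among alpha1 subunits in not being called between treatments at day 6. It was at 29.1, 27.7 and 29.5 CPM in D6RA and 26.9, 29.2 and 25.5 in D6DMSO, groups that overlapped, with a log2 difference of 0.08 ± 0.19 (SE, limma adjusted p = 0.731). From D0, where it was at 3.79, 4.72 and 4.54 CPM, it rose by 1.91 ± 0.19 (SE, limma adjusted p = 3.32e-07) in D3DMSO and 1.50 ± 0.19 (SE, limma adjusted p = 2.47e-06) in D3RA. Cacna1d, the other L-type member, was higher in D6RA (4.38 to 5.3 CPM) than in D6DMSO (1.3 to 1.36 CPM), a call lost after thinning to the smallest library (adjusted p = 0.101). The R-type channel Cacna1e held 1 count over the 3 D0 libraries and 46 over D3RA, 75.6 times as much at their depth, with counting error spanning 12.9 to 3050 (95% interval), and reached 10.2 to 11 CPM in D6RA.

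The alpha2delta subunits carry calcium channels to the surface, and Cacna2d1 and Cacna2d2 are the targets of the drug gabapentin. Cacna2d3 was at 106, 97.6 and 96.9 CPM in D6RA, 14.8, 13 and 11.4 in D3RA, 1.18, 0.798 and 0.831 in D6DMSO, 0.414, 0 and 0.155 in D3DMSO and 0.103, 0.157 and 0.189 in D0. Both RA groups lay above every DMSO and D0 library. The log2 treatment difference was 5.86 ± 0.40 (SE, limma adjusted p = 2.02e-09) at day 3, the highest of the members, and 6.73 ± 0.40 (SE, limma adjusted p = 2.15e-10) at day 6.

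Cacna2d2 changed sides. It was at 9.53, 11.5 and 16.6 CPM in D3DMSO and 2.55, 3.91 and 4.57 in D3RA, but 54.9, 65.2 and 55.5 in D6RA and 5.39, 5.42 and 5.51 in D6DMSO. The treatment difference was -1.73 ± 0.26 (SE, limma adjusted p = 1.97e-05) at day 3 and 3.42 ± 0.26 (SE, limma adjusted p = 3.89e-09) at day 6. Cacna2d1 was higher at day 6 than at day 3 in both arms, at 78.1 to 80.6 CPM in D6RA and 40.7 to 45.4 in D6DMSO, against 13.8 to 21.5 CPM at day 3.

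The beta subunits, cytosolic partners of alpha1, were each called higher in D6RA than in D6DMSO. Cacnb1 had a day 6 log2 difference of 2.60, Cacnb3 of 1.93, Cacnb4 of 3.56 and Cacnb2 of 0.59 ± 0.24 (SE, limma adjusted p = 0.0409). Cacnb2 stands apart, since it was highest in D0 (13.1, 14.6 and 14.2 CPM) and lay between 1.97 and 5.27 CPM in every differentiated library. Of the gamma subunits, Cacng4, a partner that carries AMPA receptors to synapses, was at 137, 148 and 142 CPM in D6RA and 3.16, 4.24 and 3.98 in D6DMSO, with a difference of 5.24 ± 0.18 (SE, limma adjusted p = 1.12e-13). Cacng7 was also higher with RA at day 6 (32.6 to 38.4 against 14.3 to 18 CPM), and Cacng6, a gamma subunit of muscle type, was lower (0.219 to 0.451 against 1.31 to 2.18 CPM).

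**Figure D3:**
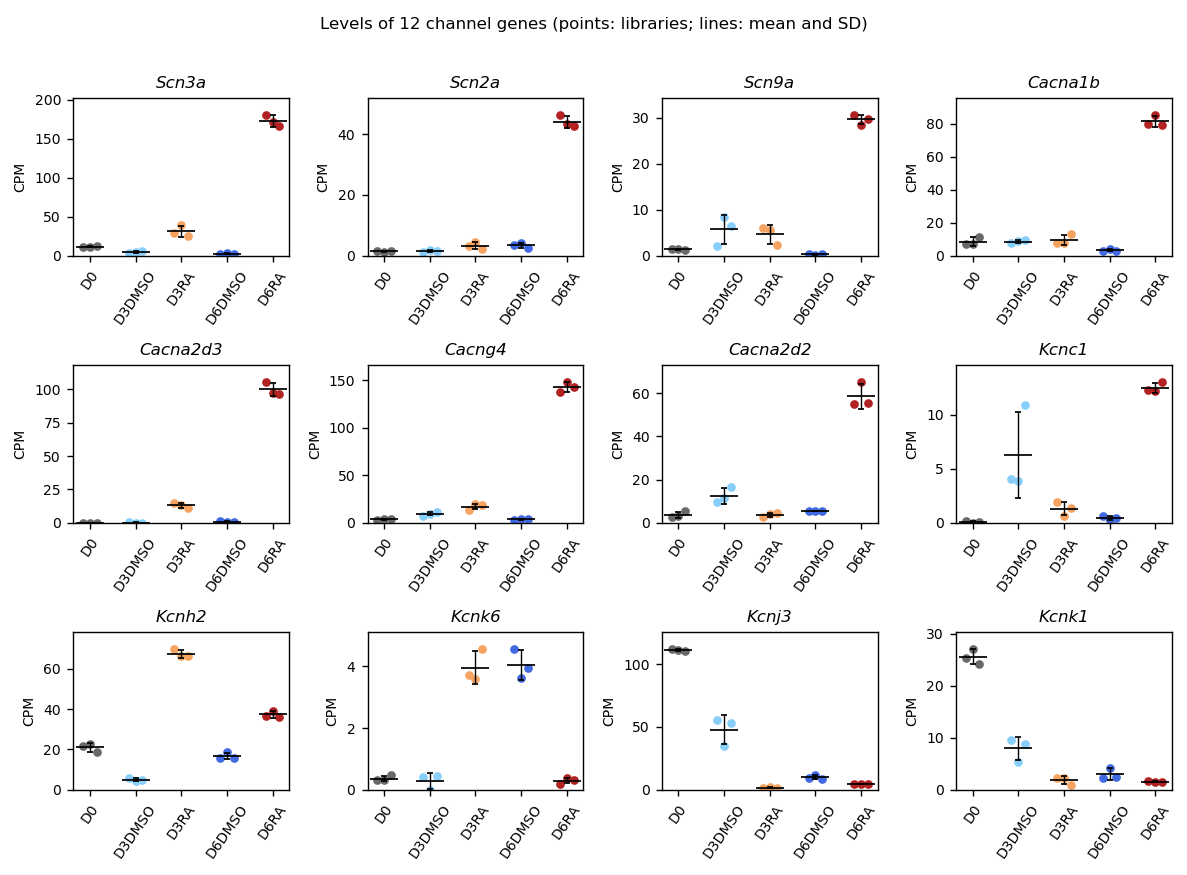
Points are the 3 libraries of each group in CPM on the y axis (each panel has its own scale from 0), horizontal lines the mean and vertical bars the SD, for 12 channel genes. Scn3a, Scn2a, Scn9a, Cacna1b, Cacna2d3, Cacng4, Cacna2d2 and Kcnc1 stand highest in D6RA, Kcnh2 in D3RA, and Kcnj3 and Kcnk1 in D0, while Kcnk6 is high in D3RA and D6DMSO.

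Of the potassium channels, the Kv1 to Kv4 families hold the classical delayed rectifiers and A-type channels. At day 6, 7 of the 11 measured were called higher with RA (background 32.6%) and 0 lower (background 33.1%). At day 3, 2 were higher (background 30.7%) and 5 lower (background 31.4%), in all about the share of all genes. Kcnd2, an A-type channel of dendrites, was at 5.69, 6.84 and 6.51 CPM in D6RA, 0.263, 0.168 and 0.0438 in D6DMSO and 1.09, 1.63 and 1.83 in D3RA, and held 2 counts over the 3 D3DMSO libraries against 21 in D3RA, 12 times as much at their depth (95% interval from counting error, 2.93 to 106). D6RA lay above all other libraries, and D3RA above all DMSO and D0 libraries. Its paralog Kcnd3 was also higher with RA at day 6, at 12.9 to 13.2 CPM in D6RA and 1.13 to 1.62 in D6DMSO.

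Kcnc1, a Kv3 channel of fast-spiking neurons, reversed between the days. It was at 4, 3.9 and 10.8 CPM in D3DMSO and 1.91, 0.651 and 1.37 in D3RA, then 0.614, 0.294 and 0.481 in D6DMSO and 12.2, 12.2 and 13 in D6RA. The treatment difference was -2.04 ± 0.48 (SE, limma adjusted p = 0.00149) at day 3 and 4.75 ± 0.48 (SE, limma adjusted p = 1.7e-07) at day 6, and 1 D3DMSO library was more than 2 times as high as the others. Of the Kv1 members, Kcna1 and Kcna6 were called higher in D6RA than in D6DMSO, with differences of 1.44 and 1.22, and Kcna3 (0.44) and Kcna5 (-0.37) were not called.

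Kv7 channels carry the M-current that restrains firing in neurons or repolarise heart and epithelia (Kcnq1). Kcnq3, a subunit of the M-channel, fell from D0 in both arms by day 3 and rose by day 6 in the RA arm. It was at 7.08, 10.4 and 9.83 CPM in D0, 3.31, 1.85 and 1.39 in D3DMSO and 0.911, 0.977 and 0.457 in D3RA. At day 6 it was at 0.877, 1.51 and 1.14 CPM in D6DMSO and 10.9, 10.7 and 10.2 in D6RA. Its mean was lowest in D3RA. D3RA differed from D0 by -3.31 ± 0.31 (SE, limma adjusted p = 5.78e-08), and D6RA from D3RA by 3.55 ± 0.31 (SE, limma adjusted p = 3.51e-08). Kcnq5 was higher with RA at day 3 (2.42 ± 0.44 SE, limma adjusted p = 0.000143) and lower at day 6 (-1.51 ± 0.44 SE, limma adjusted p = 0.00577), with its highest level in D6DMSO at 6.71, 7.35 and 6.08 CPM. Kcnq1 was lower with RA at both days, at 0.265 to 0.369 against 0.919 to 1.85 CPM at day 6.

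In the EAG, ERG and ELK families, Kcnh2, the ERG channel that ends the cardiac action potential, peaked at day 3 with RA. It was at 69.8, 66.4 and 66.2 CPM in D3RA, 36.8, 39.2 and 36.1 in D6RA, 21.8, 23 and 18.6 in D0, 15.9, 18.7 and 15.8 in D6DMSO and 5.94, 4.52 and 4.65 in D3DMSO. D3RA and D6RA overlapped no other group, and the treatment difference of 3.73 ± 0.12 (SE, limma adjusted p = 1.49e-13) at day 3 was larger than that of 1.16 ± 0.12 (SE, limma adjusted p = 1.56e-07) at day 6 (interaction -2.58 ± 0.16 SE, limma adjusted p = 2.03e-09). Kcnh6, another ERG channel, was at 6.46, 4.09 and 7.66 CPM in D0 and at 0 counts in all D3RA libraries, at least 34.5-fold lower, taking 3 counts over the group as the floor. It had 0.376 to 0.738 CPM in D6RA and 0 to 0.336 in D6DMSO, and its day 6 call (limma adjusted p = 0.0198) was lost without D6DMSO replicate 3 or D6RA replicate 2. The ELK channels Kcnh4 and Kcnh8 and the ERG channel Kcnh7 were highest in D6RA, at 8.51 to 10.3, 4.38 to 4.77 and 8.89 to 10.8 CPM, against 0.219 to 0.57, 0.042 to 0.219 and 1.23 to 2.23 in D6DMSO.

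Silent Kv subunits pass no current alone and modify Kv2 channels. Kcng3 was at 9.54, 9.12 and 10.3 CPM in the D0 libraries, 3.18, 2.26 and 2.79 in D3DMSO, 0.455, 0.326 and 0 in D3RA, 0.877, 1.3 and 1.01 in D6DMSO and 0.132, 0.205 and 0.157 in D6RA. D0 lay above all others, and the treatment difference was -2.87 ± 0.35 (SE, limma adjusted p = 2.43e-06) at day 3 and -2.58 ± 0.35 (SE, limma adjusted p = 6.04e-06) at day 6. Kcns3 was highest in D3DMSO at 3.18, 3.49 and 4.34 CPM and lower with RA at day 3 (-2.43 ± 0.39 SE, limma adjusted p = 4.91e-05). Its day 6 call (limma adjusted p = 0.0243) was lost when either of D6DMSO replicates 1 and 3 or D6RA replicates 1 and 2 was left out. Kcng1 was not called between treatments at either day.

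The Kv auxiliary subunits are the cytosolic partners of Kv1 (Kcnab) and Kv4 (Kcnip). Kcnab3 was at 7.04, 5.34 and 6.82 CPM in D3DMSO and 0.364, 1.3 and 0.457 in D3RA, a difference of -3.11 ± 0.34 (SE, limma adjusted p = 5.17e-07), and was not called at day 6 (-0.28 ± 0.34 SE, limma adjusted p = 0.479). Kcnip3, also known as a calcium-dependent repressor of transcription, was lower with RA at both days, at 3.91 to 5.48 against 9.94 to 14 CPM and 1.64 to 2.45 against 3.95 to 4.96 CPM. Kcnab2 was higher with RA at day 6 (1.69 ± 0.21 SE, limma adjusted p = 2.24e-06). Kcnab1 was highest in D6DMSO (9.91, 9.2 and 9.02 CPM), and Kcnip2 and Kcnip4 were not called at day 6. The Kv4 pore genes Kcnd2 and Kcnd3 were thus called higher with RA at day 6 and none of the 3 measured Kcnip partners was.

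Among calcium- and sodium-activated channels, Kcnma1, the large-conductance channel opened by calcium and voltage together, was at 13.3, 14.7 and 14.3 CPM in D6RA, 1.8, 1.97 and 1.49 in D6DMSO and 4.82, 7.08 and 7.66 in D0. D6RA lay above all others, with a treatment difference of 3.00 ± 0.36 (SE, limma adjusted p = 1.44e-06). Its subunit Kcnmb2 was higher with RA at day 6 as well (6.02 to 7.7 against 0.306 to 0.439 CPM), and Kcnmb4, the subunit known from brain, was not called in any comparison between treatments. Of the small-conductance channels, Kcnn1 was higher with RA at day 6 (25.7 to 26 against 6.01 to 6.91 CPM), Kcnn3 was lower (-2.56), and Kcnn2 was not called (1.21 ± 0.55 SE, limma adjusted p = 0.0616). Kcnt2, opened by sodium, was at 4.11 to 5.46 CPM in D3RA and at 8.18 to 24.7 CPM in all other libraries. The antisense RNA Kcnmb4os2 was at 0.819 to 1.13 CPM in D6RA and 0.168 to 0.57 in D6DMSO, and was called higher (1.63 ± 0.63 SE, limma adjusted p = 0.0321); whether counting used the strand is not given in the sources used here, so its reads and those of Kcnmb4 cannot be told apart.

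Inward rectifiers pass potassium inward more easily than outward. Kcnj3, a G-protein-gated channel of atrium and brain, was at 112, 111 and 111 CPM in the D0 libraries, 55.8, 34.5 and 53.3 in D3DMSO, 1.37, 1.95 and 1.37 in D3RA, 9.43, 11.8 and 8.75 in D6DMSO and 4.7, 4.96 and 4.7 in D6RA. No group overlapped another. D3RA differed from D0 by -6.05 ± 0.18 (SE, limma adjusted p = 7.18e-14), and Kcnj3 then rose from D3RA to D6RA (1.51 ± 0.18 SE, limma adjusted p = 1.43e-06) and fell from D3DMSO to D6DMSO (-2.24 ± 0.18 SE, limma adjusted p = 3.39e-08). Kcnj2, a strong rectifier that sets the resting potential of muscle, peaked in D3RA at 5.92, 9.77 and 3.2 CPM, with 2 counts over the D0 libraries and 102 over D3RA (83.8 times as much at their depth, 95% interval from counting error 22.6 to 701). Kcnj12, a close relative, was highest in D0 (6.29 to 7.69 CPM) and was higher with RA at day 3 (1.80 ± 0.34 SE, limma adjusted p = 0.000202) but lower at day 6 (-2.42 ± 0.34 SE, limma adjusted p = 7.65e-06). Kcnj10, the rectifier known from glia, was higher with RA at both days and reached 4.6, 5.24 and 4.82 CPM in D6RA, where the 2 measured of 6 glia markers summed to 3.69 to 4.35 CPM, against 5.95 to 6.53 in D6DMSO; their part in this result was not tested.

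Two-pore channels carry background potassium current. Kcnk1 was, like Kcnj3, highest in D0, at 25.3, 27 and 24.2 CPM in the D0 libraries, 9.67, 5.34 and 8.83 in D3DMSO and 2.28, 2.28 and 0.914 in D3RA. D0 lay above all other libraries, and D3RA differed from it by -3.78 ± 0.30 (SE, limma adjusted p = 9.19e-09). The stretch- and lipid-gated channels Kcnk2 and Kcnk10 were highest in D6RA, with day 6 differences of 3.38 and 4.09. Kcnk5, a pH-sensitive channel, was lower in both DMSO groups (8.51 to 14.8 CPM) than in D0, D3RA and D6RA (25.5 to 32.9 CPM).

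Kcnk6 had the lowest interaction of the members (-7.51 ± 0.72 SE, limma adjusted p = 2.88e-07). It was at 3.73, 3.58 and 4.57 CPM in D3RA, 0.414, 0 and 0.465 in D3DMSO, 4.56, 3.61 and 3.94 in D6DMSO, 0.199, 0.369 and 0.313 in D6RA and 0.308, 0.315 and 0.473 in D0. The treatment difference was 3.77 ± 0.51 (SE, limma adjusted p = 7.38e-06) at day 3 and -3.74 ± 0.51 (SE, limma adjusted p = 5.87e-06) at day 6. The 4 endothelium markers had summed levels of 119.9 to 166 CPM in D3RA, 129 to 151 in D6DMSO, 33 to 63.6 in D3DMSO, 17.8 to 25.9 in D6RA and 1.95 to 2.55 in D0. The D6DMSO sum was mostly Kdr (124 CPM against 8.64 in D6RA), and Emcn was also higher there (7.79 against 1.91). Pecam1 was at 3.59 and 4.79 CPM and Cdh5 at 7.18 and 5.62. Of the 4 markers, 2 were called lower in D6RA and 0 higher. Their part in the result was not tested.

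At day 3 the calls were more evenly split between the treatments. Called were 49 of 76 (64.5%, background 62.1%), with 28 higher in D3RA (background 30.7%) and 21 lower (background 31.4%), and a median log2 difference of 0.17 against -0.01 over all genes. The libraries of D3RA and D3DMSO did not overlap in 48 members (63.2%, background 58.5%). Of the calcium channel subunits, 4 of 7 alpha1, 2 of 3 alpha2delta, 3 of 4 beta and 1 of 4 gamma subunits were called higher and only Cacna2d2 lower, but 4 of these higher calls (Cacna1a, Cacna1h, Cacna2d1 and Cacnb3) were lost without 1 library, and that of Cacnb4 after thinning to the smallest library (adjusted p = 0.252). Same-number D3DMSO and D3RA libraries deviated together, most for replicate 1 (r of 0.33, against 0.11 and 0.165 for replicates 2 and 3). Replicate 1 was also the odd library of both groups. In D3RA the chi-square per degree of freedom between its counts and those of replicates 2 and 3 was 266 and 313, against 9.5 between replicates 2 and 3. In D3DMSO these values were 141 and 100 against 13.1. With the replicate number as a block in the day 3 libraries 51 members were called. Cacna1c (adjusted p = 0.0428 in place of 0.0751) and Kcnn2 (0.0472 in place of 0.109) were then called lower in addition. Kv auxiliary subunits had 1 higher and 3 lower of 6, and EAG, ERG and ELK channels 2 and 2 of 6. The lowest differences were those of Kcnj3 (-4.80), Kcnab3 (-3.11) and Kcng3 (-2.87).

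The change of the treatment difference from day 3 to day 6 was tested as an interaction. It was called for 54 members (71.1%, background 48.5%), 45 positive (background 25.4%) and 9 negative (background 23.1%), with a median of 1.61 against 0.04 over all genes. After thinning to the smallest library, which evens out the depth of the days, it was called for 38, with 32 positive and 6 negative. Called in the same direction on both days were 30 members, 22 higher with RA and 8 lower. The share of all genes called in the same direction on both days was not worked out. The count of 30 thus describes the members and sets them apart from no other genes. Among the 22 are Cacna1a, Cacna1e, Cacna1g, Cacna1h, Cacna2d1, Cacna2d3, Cacnb1, Cacnb3, Cacnb4, Cacng4, Kcnd2, Kcnd3, Kcnh1, Kcnh2, Kcnj10, Kcnk10, Kcnk5, Scn2a, Scn3a and Scn3b. The day 3 calls of Cacna1a, Cacna1h, Cacna2d1, Cacnb3 and Kcnk10 were each lost without at least 1 library: Cacna1a without D3RA replicate 3 (adjusted p = 0.0561), Cacna1h without D3DMSO replicate 1 or 2 or D3RA replicate 1 or 3 (0.0683 to 0.172), Cacna2d1 without replicate 2 of either group (0.0673 and 0.083), Cacnb3 without D3DMSO replicate 2 or 3 or D3RA replicate 1 (0.0533 to 0.125) and Kcnk10 without D3DMSO replicate 2 or D3RA replicate 2 or 3 (0.0527 to 0.101). Kcna1, of the next set, was lost without D3DMSO replicate 3 (0.0541), and Kcnh6 without D3DMSO replicate 3 or D3RA replicate 1 (0.0579 and 0.0605). The 8 lower on both days are Kcng3, Kcnip3, Kcnj3, Kcnk1, Kcnn3, Kcnq1, Kcns3 and Kcnt2, of which Kcnn3 at day 3 (0.323) and Kcnip3 (0.115), Kcnq1 (0.0635) and Kcns3 (0.906) at day 6 were lost after thinning to the smallest library.

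Called in opposite directions were 12 members. Cacna2d2, Kcna1, Kcnc1, Kcnc2, Kcnh6, Kcnh7, Kcnq3, Scn1a and Scn2b were lower with RA at day 3 and higher at day 6, and Kcnj12, Kcnk6 and Kcnq5 the reverse. After thinning to the smallest library, the day 6 calls of Kcna1 (adjusted p = 0.339), Scn1a (0.152), Scn2b (0.197) and Kcnh6 (0.587) were lost, as were the day 3 calls of Kcna1 (0.061) and Kcnh6. The day 3 call of Scn1a was lost when only the groups compared were fitted (0.0503), and that of Kcnc2 was close to the threshold (0.0439). Another 16 members were called higher at day 6 and not called at day 3, Cacna1b, Scn8a, Scn9a and Kcnma1 among them. For neither the 12 nor the 16 was the share of all genes with such calls worked out. Whether channel genes change sides more often than other genes was thus not tested. The plot of day 3 against day 6 differences places the 9 members of the first pattern at upper left and the 3 of the second at lower right.

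**Figure D4:**
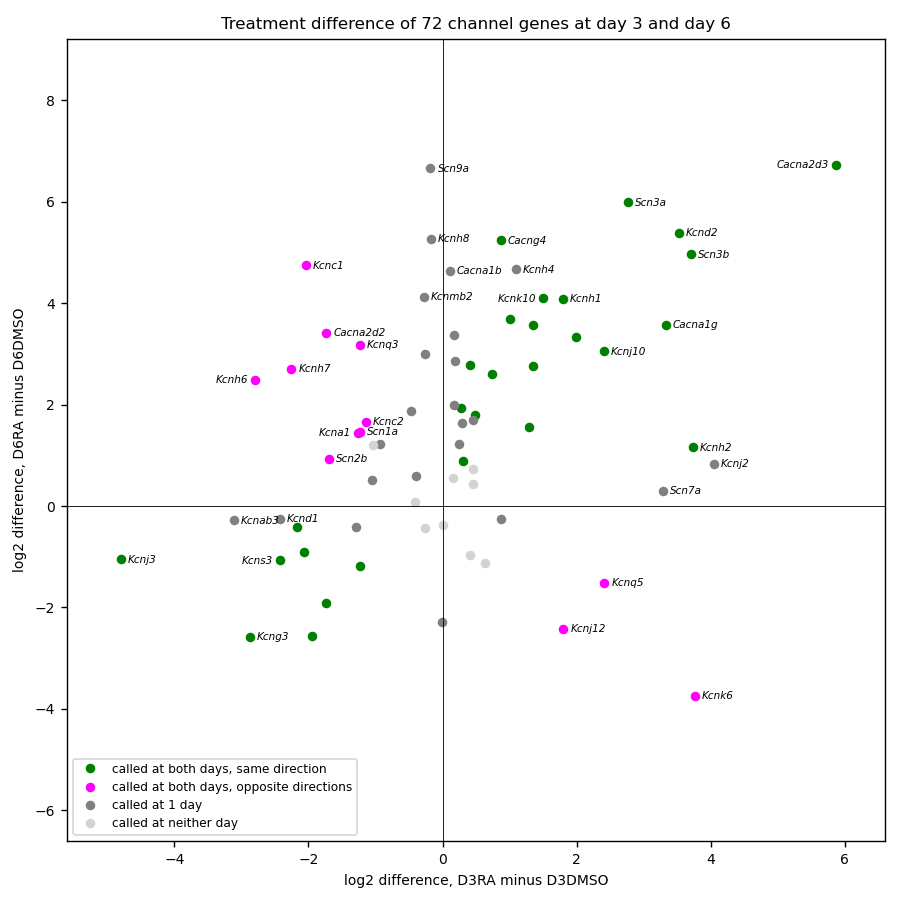
Each point is 1 of 72 of the 76 members, with the log2 difference D3RA minus D3DMSO on the x axis and D6RA minus D6DMSO on the y axis, coloured by the calls at the 2 days. Cacna2d3 stands at upper right, Kcnj3 at far left, and the magenta points are the 12 members called in opposite directions.

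Against undifferentiated cells, Cacna1c, Cacna1e, Kcnc1, Kcnk10 and Cacng4 were among the members higher in both D3 groups. Among those lower in both were Kcnj3, Kcnk1, Kcng3, Kcnj12, Cacnb2, Cacnb3 and Kcnma1. After thinning to the smallest library the calls of Kcng3 in D3DMSO (adjusted p = 0.0758) and Kcnj12 in D3RA (0.0914) were lost. In D3DMSO, 45 members were called (59.2%, background 56.1%), 18 higher (background 28.2%) and 27 lower (background 27.8%), and the libraries did not overlap in 41 (background 58.8%). In D3RA, 49 were called (64.5%, background 68.9%), 28 higher (background 35.0%) and 21 lower (background 33.9%), with no overlap in 48 (background 68.2%). Both comparisons share the D0 libraries, so their values are set side by side without an overlap count. Kcnj3 differed from D0 by -1.25 in D3DMSO and -6.05 in D3RA, Kcng3 by -1.79 and -4.67, and Kcnh2 by -2.06 and 1.68. The pluripotency markers that accompany undifferentiated cells summed to 1382 to 1581 CPM in D0, 419 to 944 in D3DMSO and 0.911 to 5.02 in D3RA; their part in the fall of the D0 channels was not tested.

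From day 3 to day 6 more members rose than fell in the RA arm, and more fell than rose in the DMSO arm, within the limit on time given above. D6RA differed from D3RA in 60 members (78.9%, background 69.3%), 50 higher (background 37.2%) and 10 lower (background 32.0%), with a median of 1.71 against 0.07 over all genes and no overlap in 65 (background 73.6%). The largest rises were those of Kcnh7 (4.40 ± 0.48 SE, limma adjusted p = 5.13e-07), Cacna2d2 (3.98 ± 0.26 SE, limma adjusted p = 1.45e-09), Scn2a (3.72 ± 0.25 SE, limma adjusted p = 1.81e-09) and Kcnq3 (3.55 ± 0.31 SE, limma adjusted p = 3.51e-08), and the largest fall that of Kcnk6 (-3.76 ± 0.51 SE, limma adjusted p = 6.31e-06). D6DMSO differed from D3DMSO in 43 members (56.6%, background 56.4%), 16 higher (background 28.3%) and 27 lower (background 28.1%), with a median of -0.11 against 0.01 and no overlap in 48 (background 63.1%). After thinning to the depth of the smallest library, that count was 26, with 11 higher and 15 lower. Scn9a had the lowest difference, -4.10 ± 0.40 (SE, limma adjusted p = 3.24e-07), and Kcnk6 and Kcnq5 the highest, at 3.75 and 2.87.

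Several members lie next to each other in the genome, and such neighbours did not always share a course. RefSeq places Kcnh7, Scn3a, Scn2a, Scn1a, Scn9a and Scn7a in this order on 1 chromosome, with 4 protein-coding genes between Kcnh7 and Scn3a and 3 between Scn2a and Scn1a. In this cluster Scn3a, Scn2a, Scn1a, Scn9a and Kcnh7 were highest in D6RA, while Scn7a was highest in D3RA. In the cluster of Cacng7, Cacng8 and Cacng6, the differences between D6RA and D6DMSO were 1.22, 0.72 and -2.28, with Cacng7 called higher, Cacng6 called lower and Cacng8 not called. Kcna5, Kcna1 and Kcna6 differed by -0.37, 1.44 and 1.22.

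Genes that work with these channels were read from lists of 52 genes, of which 46 were measured. Between D6RA and D6DMSO 24 were called higher (background 32.6%) and 13 lower (background 33.1%). Between D3RA and D3DMSO 11 were called higher (background 30.7%) and 18 lower (background 31.4%), in all about the share of all genes. The 5 measured genes of the list of hyperpolarisation-gated and leak channels (Hcn2, Hcn3, Hcn4, Unc79 and Unc80) were each higher in D6RA, Unc79 at 60.0 ± 2.65 CPM (SD, n = 3) against 0.76 ± 0.184. Of 9 genes of the axon initial segment and the FGF homologous factors that bind sodium channels, 7 were higher (background 32.6%) and 0 lower. Nfasc, an adhesion protein of that segment, was at 128 ± 4.43 CPM in D6RA and 5.55 ± 0.373 in D6DMSO, while Fgf11 and Sptbn4 were not called.

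Of 11 measured genes of calcium release, pumping and uptake, 3 were higher in D6RA (background 32.6%) and 6 lower (background 33.1%), the lower ones including Itpr1 (-2.02), Ryr2, the cardiac release channel (-2.33), and Atp2a3 (-6.56), while Atp2b2, a calcium pump of neurons, was higher (6.25). Rest, the repressor of neuronal genes whose element was searched above, was at 321 ± 10.5 CPM in undifferentiated cells, 212 ± 12.5 in D3DMSO, 91.3 ± 12.8 in D3RA, 201 ± 10.7 in D6DMSO and 72.6 ± 1.11 in D6RA (SD, n = 3). It was lower with RA at both days, with differences of -1.22 ± 0.08 (SE, limma adjusted p = 2.09e-09) and -1.47 ± 0.08 (SE, limma adjusted p = 1.23e-10), and its part in the channel changes was not tested.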

How the data were processed

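RNA of 15 P19 libraries, 3 in each of 5 groups taken from the sample titles, was analysed, and the 18 chromatin samples were left out. Per the labels' protocols, stranded total RNA libraries depleted of ribosomal RNA were read single end. The tools listed per the submitters' processing notes include Trimmomatic 0.32, STAR 2.6.0c and featureCounts, then limma and edgeR, and the genome is mm9. The deposited table holds log2 values made by the authors, and what they are relative to is not given in the sources used here. After undoing the log2, dividing by a constant per library and taking off a count of 0.5, 100% of values lay within 0.05 of a whole number, and these numbers served as counts for CPM (mean ± SD, n = 3). Library sizes for CPM follow the deposited scale, and their geometric mean equals that of all counts outside the mitochondrial genes. Of 14717 gene IDs, 14228 matched a symbol.

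Tests ran in limma 3.58.1 (R 4.3.3) on the deposited log2 table (14717 genes) with a variance trend, 1 coefficient per group, 10 residual degrees of freedom and Benjamini-Hochberg adjustment over all genes, called at 0.05. All genes were kept, and the log2 differences are on a scale with 0.5 counts added, which understates changes of low genes between libraries of like depth. The same 0.5 counts weigh more in the shallow D0 and D3 libraries than in D6. Falls of low genes from D3 to D6 can thus be enlarged. The fall of Kcng3 from D3RA to D6RA (-1.09) was called, and this call was lost with the count added in proportion to depth. Counts of 0 were given a floor of 3 counts over the group; 95% intervals of count ratios cover counting error only. The scripts were tested on simulated data. Same-number libraries of D3DMSO and D3RA deviated together from their group means (r of 0.11 to 0.33 across genes in 3 of 3 pairs), so these numbers were taken to pair the day 3 libraries. In no other pair of groups were 3 of 3 above 0.1, though D0 and D3DMSO came close (0.0967 to 0.292). The labels do not say what a number marks.

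Members, role groups and lists were chosen with earlier results of these data known. Genes given in detail follow a rule: a panel of 38 genes by role, per comparison the 6 highest and 6 lowest called members whose libraries do not overlap and whose higher group reaches 2 CPM, and members needed to complete a role group. A few members and list genes are counted but not reported here by name or drawn. Alternatives were quantile normalization, median-of-ratios scaling, a count of 2 added, a filter of 5 CPM in 3 libraries, limma without the trend, voom weights, thinning to 2189364 counts, a fit of only the groups compared, leaving out libraries one by one, and a replicate block. Adding the count in proportion to depth, and a replicate block in the day 3 libraries only, were chosen after seeing the data. Python 3.11.15, pandas 2.3.3, numpy 2.4.6, scipy 1.17.1 and matplotlib 3.10.9 made tables and figures.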

Additional observations from a re-analysis of the deposited data

Results flagged for a closer look

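The difference between RA and DMSO was not the same at day 6 as at day 3 for 11 members, taken from the highest and lowest interactions (limma, Benjamini-Hochberg over all genes). The day 6 difference was higher than that at day 3 for Scn9a by 6.83 on the log2 scale (adjusted p = 4.89e-08), Kcnc1 by 6.79 (4.55e-07), Kcnh8 by 5.44 (0.00022), Cacna2d2 by 5.15 (7.41e-09) and Kcnh7 by 4.96 (1.4e-05). It was lower for Kcnk6, at -7.51 (2.88e-07), Kcnj12, at -4.22 (1.84e-06), Kcnq5, at -3.93 (6.04e-05), Kcnj2, at -3.22 (0.0121), Scn7a, at -2.98 (0.00135), and Kcnh2, at -2.58 (2.03e-09). In Kcnc1, Cacna2d2, Kcnh7, Kcnk6, Kcnj12 and Kcnq5 the sign of the treatment difference was called in opposite directions at the 2 days. In Kcnh2 both days were called higher with RA and differed in size. With all libraries thinned to the smallest, the interactions of Kcnj2 and Scn7a were no longer called.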

How the results depend on the processing

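Counts of called members stayed within 1.5 times under every alternative run, with 1 exception: D6DMSO against D3DMSO gave 26 in place of 43 after thinning to the smallest library. Between RA and DMSO at day 6, 60 members became 49 after thinning, 70 with voom weights and 55 to 57 without 1 library; at day 3, 49 became 37, 45 and 45 to 49. Quantile normalization moved the median of all genes by -0.13 between D6RA and D3RA, and the members there were then 50 higher and 9 lower. Of 290 calls of the members given in detail, 214 were never lost. The only reversed sign was Kcnab1 in D3DMSO against D0, 0.0192 after thinning in place of -0.68. The replicate numbers were taken to pair only the day 3 libraries of D3DMSO and D3RA, where r was above 0.1 in 3 of 3 pairs. Same-number r was 0.0967 to 0.292 for D0 and D3DMSO and 0.0658 to 0.121 for D0 and D3RA. Libraries with different numbers reached 0.295, so r of this size cannot settle which groups are paired. With a replicate block in the day 3 libraries only, 51 members in place of 49 were called between RA and DMSO at day 3 and 54 for the interaction, with Cacna1c and Kcnn2 at day 3 the only changed calls. With the replicate block in all libraries, 44, 48, 48, 59, 60, 43 and 54 members were called in D3DMSO against D0, D3RA against D0, D3RA against D3DMSO, D6RA against D6DMSO, D6RA against D3RA, D6DMSO against D3DMSO and the interaction. The day 6 call of Kcnk1 was lost without D6DMSO replicate 2, with an adjusted p of up to 0.0963. D3RA replicates 2 and 3 are the shallowest libraries, so low members are least certain there.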
